A study of Mus musculus with 8 samples.

Results

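The genes that charge transfer RNAs in the cytosol and the genes that respond to the transcription factor ATF4 were examined in mammary epithelium of mice with a conditional knockout of Bmpr1a (cKO). Of 36 genes listed by name, 20 encode tRNA synthetases and 16 belong to the ATF4 response. The list was matched to the gene names of the deposited table, where 35 of the 36 were found among 55933 genes; Vldlr-as was not found under that name and is not analysed here. Of these 35 genes, 34 had a mean of at least 0.5 FPKM (fragments counted per kilobase of gene and corrected for sequencing depth) over the 8 libraries and were tested. The gene left out was Cbs, an enzyme of cysteine synthesis, at 0.370 ± 0.0883 FPKM in control and 0.356 ± 0.0919 FPKM in cKO libraries (SD, n = 4 each).

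RNA-seq was performed on mammary epithelium of female C57BL/6 mice, 4 control and 4 cKO, taken at pregnancy day 14.5, and each mouse gave 1 library. The cKO mice carried K14-rtTA, teto-Cre and the Bmpr1a fl/fl alleles and received doxycycline, so that Cre deleted floxed Bmpr1a in the K14-positive myoepithelial layer. The control mice were littermates that the labels call wild type, and neither their alleles nor whether they received doxycycline are given in the sources used here. The gland was digested with collagenase and hyaluronidase, and RNA came from that whole preparation although Cre acts in its myoepithelial cells.

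tRNA synthetases join each amino acid to its tRNA and so feed the ribosome. When amino acids run short, when unfolded proteins build up in the endoplasmic reticulum or when heme is lacking, kinases phosphorylate the initiation factor eIF2, which slows translation in general but favours translation of the Atf4 mRNA. ATF4 protein then switches on genes for amino acid synthesis and uptake, several synthetases, and factors such as CHOP (Ddit3) and TRIB3, in what is called the integrated stress response. ATF4 activity is set largely by translation, which RNA levels do not show. A secretory gland in pregnancy has a heavy demand for amino acids.

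ATF4 binds DNA with C/EBP proteins at an element written TGATGNAA on one strand and TTNCATCA on the other, and the promoters of the members were searched for it on both strands, in the 250 bases before the RefSeq start (GRCm38.p6). Promoters were given for 26 of the 35 genes (not for Cars, Lars, Rars, Vars, Wars, Hars, Nars, Cth and Eif4ebp1), and 6 of the 26 held the element, against 3.91% of 27025 genes with a promoter. The 6 are shown because 5 of them (Aars, Gars, Tars, Asns and Chac1) are among the genes described below as lower than every control in 3 of 4 cKO libraries, while Nupr1 carries the same letters and was not. Capitals mark the element, and all sequences run 5′ to 3′ on the strand of the gene.

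Gars: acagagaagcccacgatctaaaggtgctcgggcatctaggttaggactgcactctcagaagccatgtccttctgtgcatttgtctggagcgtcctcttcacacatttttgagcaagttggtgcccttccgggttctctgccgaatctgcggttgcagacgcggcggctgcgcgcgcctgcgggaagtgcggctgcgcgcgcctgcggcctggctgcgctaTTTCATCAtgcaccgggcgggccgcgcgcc
Tars: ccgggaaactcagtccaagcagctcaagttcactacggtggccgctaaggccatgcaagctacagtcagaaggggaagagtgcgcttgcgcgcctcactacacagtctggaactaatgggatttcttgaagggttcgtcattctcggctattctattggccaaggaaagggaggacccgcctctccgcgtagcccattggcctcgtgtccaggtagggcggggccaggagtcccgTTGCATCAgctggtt
Asns: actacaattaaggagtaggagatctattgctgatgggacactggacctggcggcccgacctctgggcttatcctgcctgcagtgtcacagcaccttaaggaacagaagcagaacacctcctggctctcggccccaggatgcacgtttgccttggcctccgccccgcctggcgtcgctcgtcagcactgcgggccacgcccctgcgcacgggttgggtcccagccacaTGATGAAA
Chac1: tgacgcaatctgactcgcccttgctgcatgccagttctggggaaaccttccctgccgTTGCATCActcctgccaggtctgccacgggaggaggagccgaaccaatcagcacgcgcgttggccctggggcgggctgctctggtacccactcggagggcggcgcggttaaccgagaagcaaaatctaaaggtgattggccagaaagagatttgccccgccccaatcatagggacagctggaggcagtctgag
Aars: catgtcctagctttcttgagcaTTGCATCA
Nupr1: ccagttctgggaaagggccagaTTGCATCA

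These windows lie at chr6:55037751-55038000 (forward strand) for Gars, chr15:11399659-11399908 (reverse strand) for Tars, chr6:7693225-7693459 (reverse strand) for Asns, chr2:119350992-119351241 (forward strand) for Chac1, chr8:111033708-111033737 (forward strand) for Aars and chr7:126625573-126625602 (reverse strand) for Nupr1. The element starts 30 bases before the annotated start in Gars, 15 in Tars, 23 in Asns, 193 in Chac1, 112 in Aars and 110 in Nupr1. For Aars and Nupr1 only 30 bases are printed, since other transcripts of these genes have exons there. A match of letters is a description and was not tested as a binding site.

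Before the members, the libraries were checked. Reads on genes ranged from 16456480 to 18778823 in control and from 16123108 to 19896988 in cKO libraries. The RNA of the targeted gene Bmpr1a was not lower in cKO libraries (11.2 ± 1.01 FPKM against 10.1 ± 1.28 FPKM, SD, n = 4 each, exact permutation test, two-sided, p = 0.257, smallest possible p 0.0286), and the direction of every comparison rests on the labels. Epithelial markers were high in all 8 libraries, with summed levels of 4550 to 5983 FPKM for 5 luminal markers and 1413 to 2058 FPKM for 6 basal markers, and the groups overlapped for both sums. Among the basal markers Krt14 and Trp63 were lower in cKO (log2 fold changes -0.39 and -0.42) and Oxtr was higher (0.85), with unadjusted p of 0.0198, 0.014 and 0.000893 and none past the adjusted p. With a block for replicates 1 and 2 against 3 and 4, Krt14 and Trp63 passed it (adjusted p = 0.0187 and 0.0456, limma), and with limma-voom Oxtr did (adjusted p = 0.0391). The 5 alveolar markers, milk protein genes among them, summed to 1953 to 2574 FPKM in control and 3831 to 6397 FPKM in cKO libraries. Csn2, Csn3, Wap and Elf5 did not overlap between the groups. Lalba did, at 15.9 to 30.5 FPKM in control and 14.5 to 86.8 FPKM in cKO libraries (unadjusted p = 0.107, limma), and was lowest in cKO 3. Of other cell types, the 4 macrophage markers summed to 165.8 to 241 FPKM in control and 102.6 to 176 FPKM in cKO libraries, the 4 endothelial markers to 63.4 to 74.5 FPKM and 46.0 to 70.7 FPKM, the 5 fibroblast markers to 282 to 578 FPKM and 195 to 455 FPKM, and the 4 adipocyte markers to 0.535 to 1.10 FPKM and 1.80 to 4.83 FPKM (Lep was at 0 in at least 1 library). Their part in the results below was not tested, and in such bulk samples fewer cells of a type and less RNA per cell cannot be told apart.

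One library stood apart for the genes studied here. The cKO 3 library was the highest of all 8 for 17 of the 34 members tested (10 of 20 synthetases and 7 of 14 ATF4 response genes), while 13.7% of all genes tested were highest in it. Its level exceeded the mean of the other 3 cKO libraries for 32 of 34 members, by a median of 0.35 on the log2 scale, against a median of -0.0045 over all genes tested. This was not particular to the members. Of the related lists described below, cKO 3 was highest for 10 of 17 mitochondrial synthetases (median difference 0.14) and 7 of 24 other ATF4 targets (0.45). It was highest for 5 of 16 genes upstream of ATF4 (0.077). The same library had the lowest macrophage sum (102.6 FPKM), endothelial sum (46.0 FPKM) and fibroblast sum (195 FPKM) of the 8, and the part of these in its levels was not tested. Many results below are therefore given with and without it. It was singled out by the values of these same members, whereas all genes tested were not chosen that way. Leaving it out lowers the cKO means of most members by that choice, so those counts and p-values are a description and no separate support.

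In the comparison of cKO with control, which asks which genes move when Bmpr1a is deleted in the myoepithelial layer, no member passed an adjusted p of 0.05 (limma on log2(FPKM + 1), Benjamini-Hochberg adjustment over 15143 genes), a threshold passed by 0.892% of all genes tested. At an unadjusted p of 0.05, 7 of 34 members passed, against 16.4% of all genes tested. Lower in cKO were Cars, Eprs, Yars, Aars, Ddit3 and Sesn2 (6 of 34, against 7.53% of all genes), and higher was Qars (1 of 34, against 8.85%). With each library scaled to the same sum of FPKM, 8 members were lower and none higher at that p, where 10.9% of all genes were lower. With limma-voom on recovered reads, 8 members passed the unadjusted and none the adjusted threshold, which 17% and 1.57% of all genes passed. The mean was lower in cKO for 26 of the 34, where 49.8% of all genes had a lower mean. Without cKO 3, 16 members were lower at the unadjusted threshold, where 7.88% of all genes were, and 1 was higher (8.72% of all genes). In that fit 1 member (Sesn2) passed the adjusted threshold, as did 0.508% of all genes. Since cKO 3 was singled out by the values of these members, this fit is a description and no separate support. The count of members lower at the unadjusted p was 2 without control 4, cKO 2 or cKO 4, 4 without control 1, control 3 or cKO 1, and 6 without control 2. In these fits 6.05% (without cKO 2) to 7.75% (without control 2) of all genes were lower, so that 2 of 34 members (5.88%) was near the share of all genes. At the adjusted threshold the count of members was 0 when any library other than cKO 3 was left out.

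The synthetases were all well expressed, with means over the 8 libraries from 11.6 ± 1.07 FPKM for Eprs to 82.0 ± 10.4 FPKM for Nars (SD, n = 8), as the plot of synthetase levels shows. The asparaginyl enzyme Nars exceeded the glycyl enzyme Gars (58.0 ± 11.4 FPKM) in all 8 libraries. Gars in turn exceeded the valyl enzyme Vars (42.5 ± 5.53 FPKM) in 7 of 8, and Vars exceeded the next, Qars (34.6 ± 3.18 FPKM), in all 8. Below these, most neighbours in the order did not differ beyond their spread: Qars and Rars changed places in 4 of 8 libraries, Tars and Kars in 4 of 8, and Mars and Cars in 4 of 8. Kars exceeded Hars in all 8 libraries, and Farsa (14.0 ± 1.41 FPKM) exceeded Eprs, the last, in 7 of 8.

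**Figure D1:**
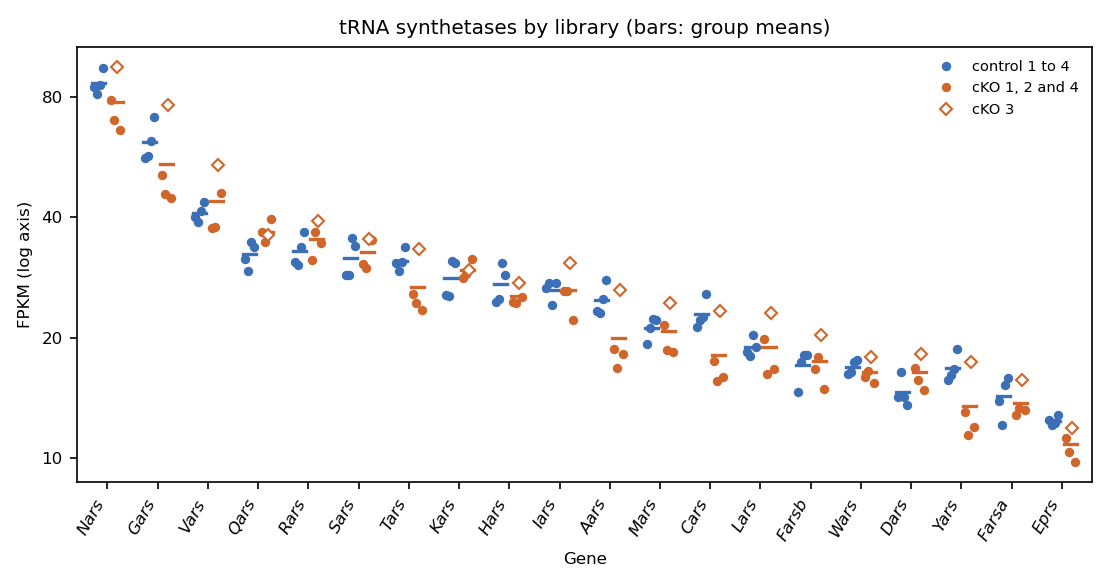
FPKM (log axis) of the 20 cytosolic tRNA synthetases in 4 control (blue) and 4 cKO (orange) libraries, ordered by the mean over all 8, with bars for group means and an open diamond for cKO 3. Nars and Gars stand at the left at 82.0 and 58.0 FPKM on average, and the open diamond is the highest of the 8 points for 10 of the 20 genes.

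Of the 20 synthetases, 13 had a lower and 7 a higher mean in cKO libraries, with a median log2 fold change of -0.038 (all genes tested had a median of 0.00072). This median was -0.00028 without cKO 4, with 10 of 20 lower, -0.10 without cKO 3, with 15 lower, and -0.097 with each library scaled to the same sum of FPKM, with 15 lower. The fold changes ran from -0.34 for Cars to 0.18 for Qars. At an unadjusted p of 0.05, 4 were lower (20%, against 7.53% of all genes) and 1 was higher. This count depended on single libraries: it was 1 of 20 without control 4, without cKO 2 or without cKO 4, 2 without control 1 or without cKO 1, 3 without control 3, and 8 without cKO 3, 7 of which were lower. Of all genes, 13.5% to 15.7% passed in these fits other than that without cKO 3, where 16.6% did, and 1 of 20 (5%) was below the share of all genes.

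Cars charges tRNA with cysteine and lies at chr7:143557230-143600090 (GRCm38, as are all gene positions here). Its level was 21.2, 22.2, 22.6 and 25.8 FPKM in control 1 to 4 and 17.5, 15.6, 23.4 and 16.0 FPKM in cKO 1 to 4. All cKO libraries but cKO 3 were below the lowest control, and cKO 3 lay within the controls. The log2 fold change was -0.34 (SE 0.12, unadjusted p = 0.0229, adjusted p = 0.222, limma), and -0.46 without cKO 3 (unadjusted p = 0.000518, adjusted p = 0.0561). An antisense gene, Gm15580, shares 211 exon bases with Cars and had a mean of 0.290 FPKM.

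Yars, the tyrosyl enzyme (chr4:129189760-129219607), gave the same picture. It stood at 15.7, 16.2, 16.7 and 18.8 FPKM in control 1 to 4 and at 13.1, 11.4, 17.5 and 11.99 FPKM in cKO 1 to 4. All cKO libraries but cKO 3 were below the lowest control. This gave a log2 fold change of -0.32 (SE 0.12, unadjusted p = 0.0305, adjusted p = 0.249, limma), and -0.44 without cKO 3. Yars shares 30 exon bases with C77080 on the other strand (31.4 FPKM), and strand-specific counting is not stated.

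Aars, the alanyl enzyme (chr8:111033144-111057664), whose promoter holds the element shown above, stood at 23.4, 23.1, 25.1 and 28.0 FPKM in control 1 to 4 and at 18.7, 16.8, 26.3 and 18.2 FPKM in cKO 1 to 4. Again the exception among cKO libraries was cKO 3, which exceeded 3 of the 4 controls. Its log2 fold change was -0.32 (SE 0.13, unadjusted p = 0.0402, adjusted p = 0.278, limma), and -0.45 without cKO 3. Aars shares 1326 exon bases with Exosc6 on the same strand, which the table lists at 0 in the mean.

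Eprs, a fused enzyme for glutamate and proline (chr1:185363044-185428360), was the only member whose groups did not overlap, where 4.6% of all genes tested were lower and 6.1% higher in cKO without overlap (10.7% in either direction). Its level was 12.5, 12.1, 12.2 and 12.9 FPKM in control 1 to 4 and 11.2, 10.4, 11.9 and 9.79 FPKM in cKO 1 to 4. The highest cKO library, again cKO 3, was 11.9 FPKM and the lowest control 12.1 FPKM, so the gap between groups was narrow. For Eprs the log2 fold change was -0.19 (SE 0.07, unadjusted p = 0.0249, adjusted p = 0.229, limma), and -0.23 without cKO 3.

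Qars, the glutaminyl enzyme (chr9:108507706-108515941), went the other way. It stood at 31.4, 29.4, 34.8 and 33.8 FPKM in control 1 to 4 and at 36.9, 34.7, 36.1 and 39.7 FPKM in cKO 1 to 4. The groups overlapped by the value of cKO 2, which was below control 3. A log2 fold change of 0.18 was found (SE 0.07, unadjusted p = 0.0311, adjusted p = 0.250, limma), and 0.12 with an unadjusted p of 0.0614 when each library was scaled to the same sum of FPKM.

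A further 3 synthetases, Gars, Nars and Tars, were below every control in 3 of 4 cKO libraries. Gars, the glycyl enzyme, was at 56.3 to 71.05 FPKM in control libraries, at 44.7 to 50.9 FPKM in cKO 1, 2 and 4 and at 76.3 FPKM in cKO 3, the highest of all. Its log2 fold change was -0.20 (SE 0.16, unadjusted p = 0.247) with and -0.38 (unadjusted p = 0.0049) without that library. For Nars, the log2 fold change was -0.17 with cKO 3 (95.1 FPKM) and -0.27 without it (unadjusted p = 0.0133). For Tars, the threonyl enzyme, it was -0.23 with (unadjusted p = 0.0645) and -0.33 without cKO 3 (unadjusted p = 0.00135), and 1 control alone (33.7 FPKM in control 4) exceeded cKO 3 (33.4 FPKM). None of these passed the adjusted threshold without cKO 3 (adjusted p = 0.121, 0.180 and 0.0797 for Gars, Nars and Tars, limma).

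The 12 remaining synthetases (Iars, Lars, Mars, Rars, Vars, Wars, Dars, Farsa, Farsb, Hars, Kars and Sars) had log2 fold changes from -0.092 for Hars to 0.16 for Dars, with unadjusted p of 0.0909 or more. The direction was not fixed for 7 of them. Farsb and Sars changed from higher to lower under scaling to the same sum (-0.031 and -0.014), and Iars, Lars, Mars, Vars, Farsa and Farsb changed sign when single libraries were left out. Hars shares 195 exon bases with its mitochondrial neighbour Hars2 on the other strand (7.09 FPKM), Mars shares 68 with Ddit3, and Farsb shares 248 with Sgpp2 (0.0380 FPKM).

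Synthetases fall into classes I and II by the fold of their catalytic domain. The 10 enzymes counted as class I had a median log2 fold change of -0.024, with 3 lower and 1 higher at an unadjusted p of 0.05. The 10 counted as class II had one of -0.070, with 1 lower (7.53% of all genes were lower and 8.85% higher at that p). Eprs, a fused enzyme for glutamate and proline, was counted in class I alone and was 1 of the 3 lower. In the cytosol, 8 of the enzymes (Eprs, Iars, Lars, Mars, Qars, Rars, Kars and Dars) are also held in a multisynthetase complex. This grouping was chosen after the values were seen and was not tested. The 8 had a median log2 fold change of 0.032, with 4 lower and 4 higher means, and the 12 outside the complex one of -0.13, with 9 lower and 3 higher means. Without cKO 3 the medians were -0.018 and -0.20. The scaffold proteins of the complex, Aimp1, Aimp2 and Eef1e1, had a higher mean in cKO in 3 of 3, with log2 fold changes of 0.081 to 0.15 and none at an unadjusted p of 0.05.

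Many synthetases of mitochondria are encoded by genes other than the members, and these genes gave the comparison closest to the members. Of 17 tested, 14 had a higher and 3 a lower mean in cKO, with a median log2 fold change of 0.076 and fold changes from -0.054 to 0.20. One passed an unadjusted p of 0.05 (5.88% of the 17, against 16.4% of all genes), Iars2, the isoleucyl enzyme of mitochondria, at 6.63 to 7.33 FPKM in control and 7.33 to 9.12 FPKM in cKO libraries (log2 fold change 0.20, SE 0.07, unadjusted p = 0.0232, adjusted p = 0.223, limma). Without cKO 3 the median was 0.052 and none passed, in either direction. With each library scaled to the same sum, 6 of the 17 had a lower mean in cKO and Iars2 did not pass (log2 fold change 0.15, unadjusted p = 0.106). None of the 14 promoters given for these genes held the element, and 3 of 13 promoters of cytosolic synthetases did. Of all genes with a promoter 3.91% held it, so that none of 14 was near that share. The difference between the 2 sets of enzymes was not tested.

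Among the ATF4 response genes, 13 of 14 had a lower mean in cKO libraries, with a median log2 fold change of -0.24, and Cebpg alone had a higher one. Without cKO 2 the median was -0.14, and 10 of 14 had a lower mean. At an unadjusted p of 0.05, 2 passed, Ddit3 and Sesn2, both lower, which is 14.3% of the 14, against 16.4% of all genes in either direction and 7.53% lower. Computed from replicates 1 and 2 alone the median was -0.27, and from replicates 3 and 4 alone -0.21. Without cKO 3 it was -0.33 and 9 of 14 passed, all of them lower, where 7.88% of all genes were lower. The plot of ATF4 response levels shows this library above the mean of the other 3 cKO libraries for 13 of the 14 genes, and the mean of control 3 and 4 above that of control 1 and 2 for 13 of the 14.

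**Figure D2:**
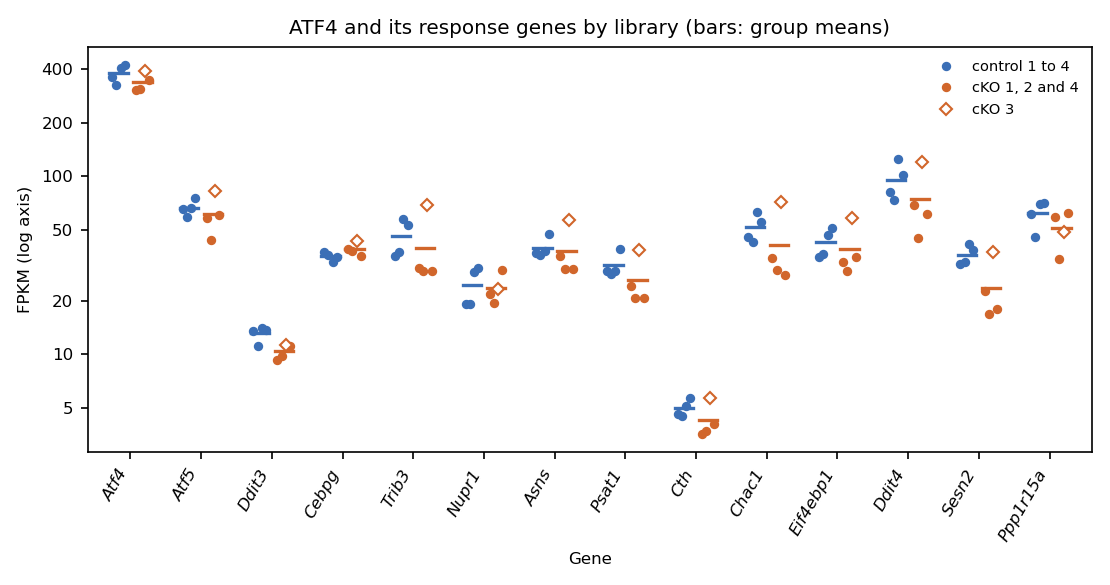
FPKM (log axis) of Atf4 and the 13 other ATF4 response genes tested, in 4 control (blue) and 4 cKO (orange) libraries, with bars for group means and an open diamond for cKO 3. The open diamond is the highest point for 7 of the 14 genes, far above the other cKO points for Trib3 (68.5 FPKM) and Chac1 (71.5 FPKM).

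Atf4 itself (chr15:80255184-80257541) was among the most abundant members. It stood at 363, 325, 409 and 420 FPKM in control 1 to 4 and at 305, 310, 391 and 346 FPKM in cKO 1 to 4. The groups overlapped, with cKO 3 above controls 1 and 2 and cKO 4 above control 2. With a log2 fold change of -0.17 it did not pass (SE 0.12, 95% interval -0.43 to 0.095, unadjusted p = 0.183, adjusted p = 0.524, limma). Scaled to the same sum, it was -0.23 with an unadjusted p of 0.0196.

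Among the transcription factors and regulators downstream of ATF4, Ddit3 encodes CHOP, a C/EBP-family factor of the stress response (chr10:127290774-127296288). Its level was 13.4, 11.2, 13.9 and 13.7 FPKM in control 1 to 4 and 9.31, 9.77, 11.2 and 11.2 FPKM in cKO 1 to 4. All controls but control 2 were above every cKO library, and control 2 was at the level of cKO 3 and cKO 4. Its log2 fold change was -0.31 (SE 0.09, unadjusted p = 0.00802, adjusted p = 0.147, limma) and was little moved without cKO 3 (-0.34). Ddit3 shares 68 exon bases with Mars on the other strand (21.0 FPKM), and the table holds a second, short entry of the same name at 0 in all libraries. With a block for replicates 1 and 2 against 3 and 4, its adjusted p was 0.0475.

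Trib3, a pseudokinase induced by ATF4 and CHOP, was at 35.5, 37.7, 57.7 and 53.0 FPKM in control 1 to 4 and at 30.3, 29.5, 68.5 and 29.4 FPKM in cKO 1 to 4. The cKO 1, 2 and 4 libraries lay close together below every control, and cKO 3 lay above every control. Its log2 fold change was -0.29 (SE 0.28, unadjusted p = 0.338) with cKO 3 and -0.58 (SE 0.17, unadjusted p = 0.00913, adjusted p = 0.153, limma) without it. Atf5, a relative of ATF4, was at 58.9 to 75.0 FPKM in control and 43.5 to 82.5 FPKM in cKO libraries. Its log2 fold change was -0.14 with and -0.30 without cKO 3. Atf5 shares 82 exon bases with Nup62 on the other strand (37.5 FPKM). The stress gene Nupr1 had -0.036 and its sign changed when single libraries were left out. Cebpg, a C/EBP protein that pairs with ATF4, was at 33.0 to 37.4 FPKM in control and 35.7 to 43.2 FPKM in cKO libraries. Its log2 fold change was 0.13 (SE 0.07, adjusted p = 0.423, limma), and 0.079 without cKO 3.

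The members that make or break down amino acid metabolites had lower means in cKO in 4 of 4 tested, and none passed with all libraries. Chac1, which degrades glutathione, was at 45.3, 43.0, 62.9 and 55.0 FPKM in control 1 to 4 and at 34.7, 29.8, 71.5 and 27.9 FPKM in cKO 1 to 4. As for Trib3, 3 cKO libraries were below and cKO 3 was above all controls. For Chac1 the log2 fold change was -0.41 (SE 0.27, unadjusted p = 0.165) with cKO 3 and -0.71 (SE 0.14, unadjusted p = 0.00104, adjusted p = 0.07, limma) without it.

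Asns, asparagine synthetase, whose promoter holds the element in the form TGATGAAA, was at 35.8 to 47.6 FPKM in control libraries and at 35.6, 30.3, 56.9 and 30.2 FPKM in cKO 1 to 4. This amounted to a log2 fold change of -0.092 with cKO 3 and -0.30 without it (unadjusted p = 0.0302). Psat1, of the serine synthesis pathway, was at 28.4 to 39.0 FPKM in control libraries and at 24.2, 20.6, 38.5 and 20.6 FPKM in cKO 1 to 4, with a log2 fold change of -0.30 with and -0.50 without cKO 3 (unadjusted p = 0.00338). Cth, which makes cysteine from cystathionine, was the lowest member tested at 4.51 to 5.63 FPKM in control and 3.56 to 5.66 FPKM in cKO libraries, and changed by -0.20 on the log2 scale and by -0.32 without cKO 3 (unadjusted p = 0.00653). In all 3 genes the cKO 3 library was above the other cKO libraries, and the other 3 were below every control.

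The last group holds regulators of translation and of mTOR signalling. Sesn2, an inhibitor of mTORC1 that senses leucine, had the lowest fold change of all members (chr4:132492032-132510501). It stood at 32.2, 32.8, 41.6 and 38.5 FPKM in control 1 to 4 and at 22.5, 16.9, 37.3 and 17.9 FPKM in cKO 1 to 4. The cKO libraries other than cKO 3 were below every control, and cKO 3 was among the controls. A log2 fold change of -0.66 resulted (SE 0.22, unadjusted p = 0.0161, adjusted p = 0.192, limma), and -0.89 without cKO 3 (SE 0.13, adjusted p = 0.0466).

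Ddit4, another mTORC1 inhibitor (REDD1), was at 81.2, 73.4, 124 and 102.2 FPKM in control 1 to 4 and at 69.3, 45.01, 120.5 and 61.5 FPKM in cKO 1 to 4. The controls themselves ranged from 73.4 to 124 FPKM, and cKO 3 was above 3 of them. On the log2 scale the change was -0.42 (SE 0.28, unadjusted p = 0.168) with and -0.68 (unadjusted p = 0.0108) without cKO 3. Eif4ebp1, the repressor of cap-dependent initiation 4E-BP1, had -0.16 with and -0.37 without that library (unadjusted p = 0.0322). Ppp1r15a (GADD34), which brings the phosphatase to eIF2, differed from the rest of its group in that cKO 3 (48.5 FPKM) was not high, lying between cKO 2 (34.4 FPKM) and cKO 1 (59.2 FPKM). Its log2 fold change was -0.29 with and -0.27 without cKO 3, at an unadjusted p of 0.189 and 0.268.

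**Figure D3:**
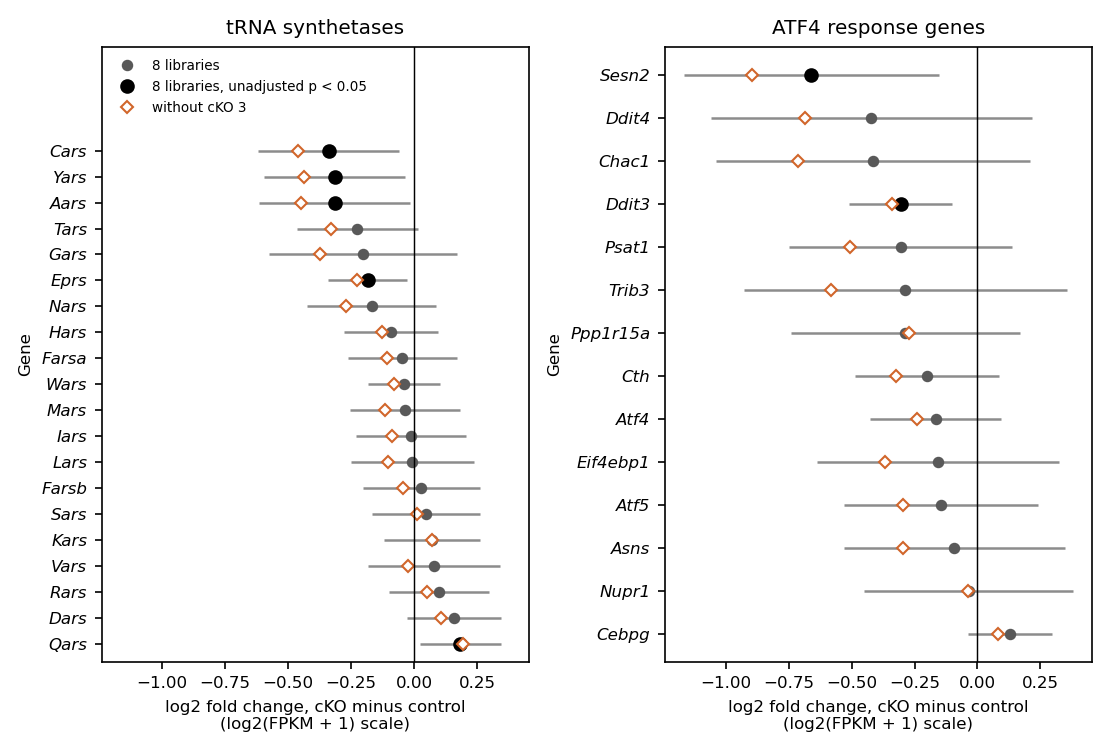
Log2 fold change (cKO minus control, log2(FPKM + 1) scale) of the 20 synthetases and the 14 ATF4 response genes tested, with 95% intervals from limma over 8 libraries (grey), larger black points at an unadjusted p under 0.05, and open diamonds for the estimate without cKO 3. Without that library 9 of the 14 ATF4 response genes and 8 of the 20 synthetases are at an unadjusted p under 0.05 (16.6% of all genes tested), and the diamonds for Trib3 and Chac1 move from -0.29 to -0.58 and from -0.41 to -0.71.

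The map of differences shows the members by library, and whether they moved together was not tested. Averaged over the 14 ATF4 response genes, the difference from each gene's mean over the 8 libraries was 0.0048, -0.080, 0.25 and 0.30 in control 1 to 4 and -0.19, -0.42, 0.34 and -0.21 in cKO 1 to 4 (log2 scale). For the 20 synthetases the values were -0.040, -0.030, 0.075 and 0.13 in control and -0.069, -0.13, 0.19 and -0.13 in cKO libraries. In these averages both sets had the same 3 highest libraries, cKO 3, control 4 and control 3, and the same lowest one, cKO 2, which cKO 4 approached for the synthetases. The library cKO 2 was the lowest of the 8 for 6 of the 14 ATF4 response genes and 5 of the 20 synthetases, where 10.3% of all genes tested were lowest in it. The library cKO 4 was the lowest for 3 and 7 of them (12.7% of all genes). Single genes departed from the averages: Qars and Kars were highest in cKO 4, Dars was lowest in control 4 and Cebpg in control 3. Among controls, the mean of replicates 3 and 4 was above that of 1 and 2 for 31 of the 34 members, by a median of 0.19 on the log2 scale, and for 53% of all genes tested, with a median of 0.016.

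**Figure D4:**
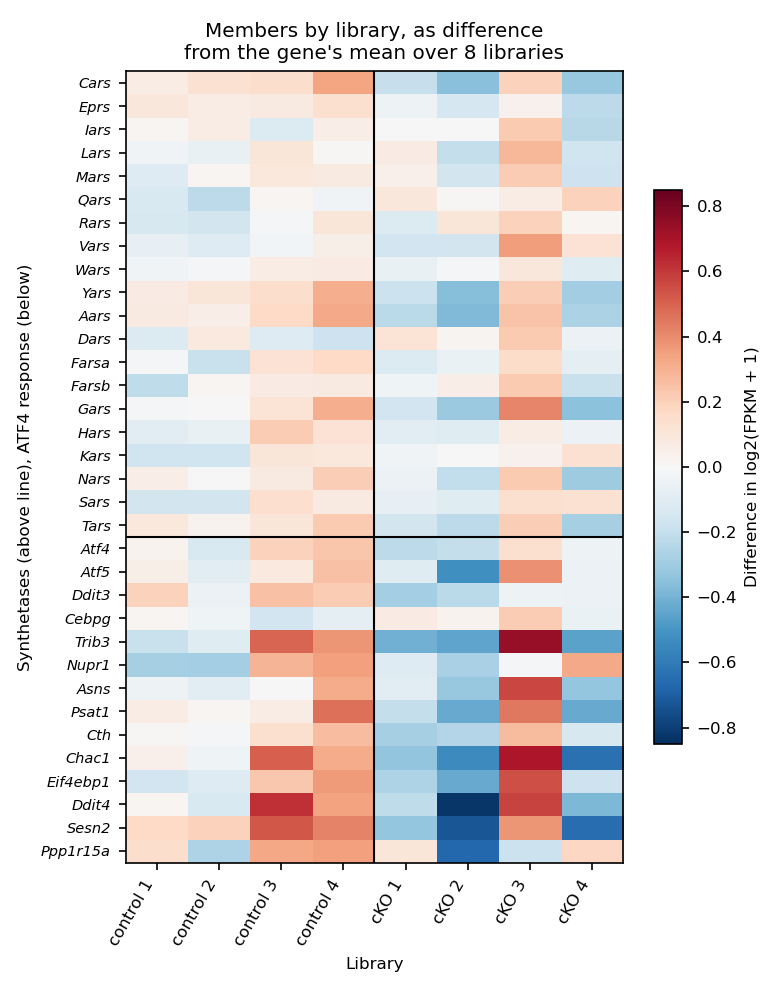
Difference of each member's log2(FPKM + 1) from its own mean over 8 libraries (red above, blue below), with synthetases above and ATF4 response genes below the horizontal line and control libraries left of the vertical line. The cKO 3 column is red for most genes while cKO 1, cKO 2 and cKO 4 are mostly blue, and control 3 and 4 are redder than control 1 and 2.

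With cKO 3 left out, 15 of the 34 members were lower in all 3 remaining cKO libraries than in any control (7 of 20 synthetases and 8 of 14 ATF4 response genes), where 7.76% of all genes tested were. This count was made after the values were seen. The synthetases were Cars, Eprs, Yars, Aars, Gars, Nars and Tars, and the others were Trib3, Asns, Psat1, Cth, Chac1, Eif4ebp1, Ddit4 and Sesn2. Of these 15, the element was found in Aars, Gars, Tars, Asns and Chac1, with promoters not given for Cars, Nars, Cth and Eif4ebp1. Of all genes with a promoter, 3.91% held it.

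Upstream of ATF4, the eIF2 kinases, the subunits of eIF2 and eIF2B and related genes had a lower mean in 8 of 16 and a higher one in 8, with a median log2 fold change of 0.0020, and 11 of 16 were lower with each library scaled to the same sum of FPKM. One passed an unadjusted p of 0.05 (6.25% of the 16, against 16.4% of all genes). Eif2ak3 encodes PERK, the kinase that responds to stress in the endoplasmic reticulum, and was at 11.3, 10.8, 11.4 and 10.3 FPKM in control 1 to 4 and at 14.9, 12.2, 10.95 and 16.0 FPKM in cKO 1 to 4. This was the mirror image of genes such as Cars and Sesn2, with cKO 3 at the level of the controls and the other cKO libraries above them. With a log2 fold change of 0.27 (SE 0.11, unadjusted p = 0.0387, adjusted p = 0.273, limma) it did not pass the adjusted threshold, nor with 0.36 without cKO 3 (unadjusted p = 0.00558, adjusted p = 0.124). With each library scaled to the same sum, its log2 fold change was 0.21 (unadjusted p = 0.1), and the unadjusted call was lost in 8 of 15 alternatives. The kinases Eif2ak1, Eif2ak2 and Eif2ak4 did not pass.

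Other genes described as ATF4 targets were tested beside the members, and 10 of 24 passed an unadjusted p of 0.05, of which 6 were lower and 4 were higher (7.53% and 8.85% of all genes). The median log2 fold change was -0.23, and -0.35 without cKO 3, when 12 were lower and 4 higher at that threshold (7.88% and 8.72% of all genes). Of the 24, 1 passed the adjusted threshold, as did 0.892% of all genes. Slc7a11, the cystine transporter xCT, fell in cKO libraries, from 5.02, 5.08, 4.09 and 4.71 FPKM in control 1 to 4 to 2.69, 2.27, 3.003 and 1.67 FPKM in cKO 1 to 4. Every cKO library was below every control, cKO 3 included. The log2 fold change was -0.76 (SE 0.13, unadjusted p = 0.000216, adjusted p = 0.0377, limma). The adjusted p was between 0.0466 and 0.11 when each library was left out in turn, and was under 0.05 in 1 of these 8 fits, that without cKO 3. It was 0.0971 with no filter on low values and 0.0143 with limma-voom.

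Gdf15, a stress-induced cytokine, was at 19.4 to 27.6 FPKM in control and 9.06 to 15.1 FPKM in cKO libraries with no overlap (log2 fold change -0.91, SE 0.18, adjusted p = 0.0624, limma). Its adjusted p was 0.026 with limma-voom and 0.00324 with a block for the sets of replicates, both past the threshold. Gadd45a, a growth arrest gene, was at 27.2 to 42.1 FPKM and 20.5 to 30.1 FPKM (log2 fold change -0.52, unadjusted p = 0.00702). In the other direction, Pycr1, the last enzyme of proline synthesis, was at 3.75 to 4.62 FPKM in control and 5.13 to 7.51 FPKM in cKO libraries (log2 fold change 0.46, SE 0.12, adjusted p = 0.103, limma). Ero1l, an oxidase that helps proteins fold in the endoplasmic reticulum, was at 16.3 to 19.1 FPKM and 22.1 to 26.2 FPKM (log2 fold change 0.37, SE 0.08, adjusted p = 0.0624, limma), and passed with limma-voom (adjusted p = 0.0461) and with that block (0.0351). For both of these the groups did not overlap.

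The rest of the 10 are named here after their values were seen. The serine synthesis enzyme Phgdh was higher, at 23.7 to 36.7 FPKM in control and 38.3 to 83.1 FPKM in cKO libraries (log2 fold change 0.73, unadjusted p = 0.0161, and 0.49 without cKO 3), with its highest value in cKO 3. The mean of Psat1, the next enzyme of the same pathway, was lower in cKO but did not pass (-0.30, unadjusted p = 0.154, limma). The difference between these genes was not tested. Map1lc3b, of autophagy, was higher as well (0.28, unadjusted p = 0.0165). Shmt2 and Mthfd2, the mitochondrial folate enzymes, and Herpud1, of endoplasmic reticulum protein degradation, were lower (log2 fold changes -0.49, -0.66 and -0.36), each with cKO 3 within the range of the controls. Without cKO 3 the adjusted p of Shmt2 and Mthfd2 was 0.0466 for each (limma). With each library left out, the adjusted p of Shmt2, Mthfd2 and Herpud1 rose to as much as 0.429, 0.475 and 0.451 (limma). Their unadjusted calls were lost in 5, 8 and 6 of 15 alternatives.

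**Figure D5:**
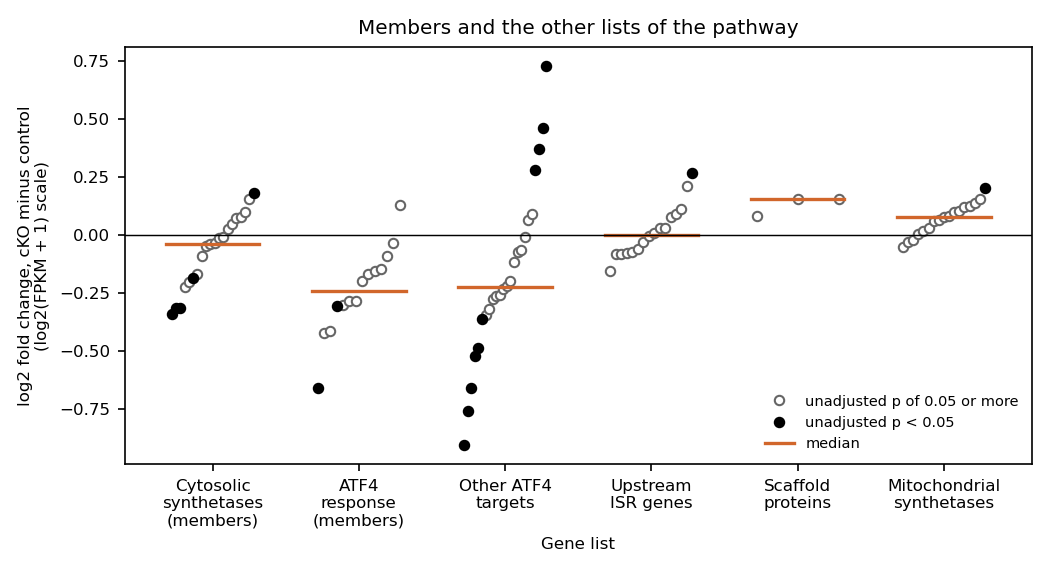
Log2 fold change (cKO minus control, log2(FPKM + 1) scale) of each gene tested in the 2 sets of members and in 4 other lists of the pathway, in rising order within a list, with orange bars for medians and filled points at an unadjusted p under 0.05. The medians are -0.038 and -0.24 for the synthetases and ATF4 response genes, -0.23 for other ATF4 targets, and 0.0020, 0.15 and 0.076 for the upstream genes, scaffold proteins and mitochondrial synthetases.

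The element was found in 8 of 22 promoters of these other targets, against 3.91% of all genes with a promoter. Slc7a11 and Pycr1 are shown because both hold it while their levels differed in opposite directions. In Slc7a11 it occurs on both strands, starting 66 and 47 bases before the start, in the window chr3:50443614-50443863 (reverse strand), and in Pycr1 it starts 103 bases before the start, in the window chr11:120643749-120643998 (reverse strand). The same letters thus stand before genes that were lower and a gene that was higher in cKO libraries.

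Slc7a11: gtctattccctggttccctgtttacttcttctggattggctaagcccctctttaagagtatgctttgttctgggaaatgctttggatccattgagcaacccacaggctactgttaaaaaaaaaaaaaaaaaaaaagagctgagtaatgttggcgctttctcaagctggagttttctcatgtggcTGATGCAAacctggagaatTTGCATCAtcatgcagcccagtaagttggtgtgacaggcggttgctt
Pycr1: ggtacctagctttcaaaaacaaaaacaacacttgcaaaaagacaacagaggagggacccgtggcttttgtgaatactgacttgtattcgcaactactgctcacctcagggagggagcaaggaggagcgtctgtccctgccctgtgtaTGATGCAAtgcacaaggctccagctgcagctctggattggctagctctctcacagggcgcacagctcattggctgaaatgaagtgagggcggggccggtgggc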

How the data were processed

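The authors prepared libraries from Trizol RNA with a NEBNext Ultra kit, aligned the reads (Hisat2, GRCm38) after a FastQC check, computed FPKM and tested genes with DESeq2. The submitters' processing notes name StringTie 1.3.3b, featureCounts 1.5.0-p3 and mm9, but 99.62% of 55394 gene identifiers found in GENCODE vM21 have its GRCm38 coordinates. Strand-specific counting is not given in the sources used here. The deposited values are FPKM for 55933 genes in 8 libraries. FPKM times gene length gave whole reads for 100% of the values above 0 (tolerance 0.01), already scaled by size factors.

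Here limma 3.58.1 (R 4.3.3; trend) was run on log2(FPKM + 1) of the 15143 genes with a mean of at least 0.5 FPKM, with two-sided tests, Benjamini-Hochberg adjustment, and all 4 control and 4 cKO libraries. Fold changes on this scale understate those of low genes. The procedure was tested on simulated data. All pairs of libraries within a group differed by more than sampling noise (chi-square per degree of freedom of at least 8.27). Members and lists were chosen with earlier results of these data known, so lists are described by counts and medians only. Named were all members, in every library where the unadjusted p was under 0.05 or groups did not overlap, Atf4, and up to 5 genes per other list with the smallest p under 0.05; others are said to be named after their values were seen. The table has a pair of Ddit3 entries, and the more abundant was taken. Alternatives were a pseudocount of 0.1, scaling to the same sum, no filter, a mean of at least 1 FPKM, the replicate number or the sets of replicates 1 and 2 against 3 and 4 as a block, limma-voom on recovered reads, and each library left out. Promoters are from RefSeq. One list of markers of other cell types is not reported here. Depth limits single low genes only (Cbs had 29 to 62 reads). The number of mice limits the precision, and each p-value sets a group difference against the spread between libraries. Since each mouse gave 1 library, mouse and preparation cannot be told apart in that spread. The main fit had no term for the sets of replicates. Python 3.11.15, pandas 2.3.3 and matplotlib 3.10.9 were used for sequences and figures.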

Additional observations from a re-analysis of the deposited data

Results flagged for a closer look

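In 3 of the 70 sets of 4 libraries examined (35 members in 2 groups), 1 library lay far from the other 3 by Dixon's criterion, where chance gives about 3.5. Trib3 was 68.5 FPKM in cKO 3 and 29.4 to 30.3 FPKM in the other cKO libraries. Chac1 was 71.5 FPKM in cKO 3 and 27.9 to 34.7 FPKM in the others. Psat1 was 39.0 FPKM in control 4 and 28.4 to 29.3 FPKM in the other controls.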

How the results depend on the processing

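Over all genes, 135 passed the adjusted p with the chosen settings, 10 with no filter on low values, 50 with the replicate block, 442 with replicates 1 and 2 blocked against 3 and 4, 238 with limma-voom, and 0 to 78 with each library left out. With 0, which was without control 4, 2134 genes passed the unadjusted p. Scaling to the same sum turned 1340 higher and 1140 lower genes at the unadjusted p into 789 and 1657, and shifted the median of all genes to -0.048. The count of ATF4 response genes at the unadjusted p was 2, and 5 with the replicate block (Ddit3, Sesn2, Ddit4, Ppp1r15a and Atf4), when 20.6% of all genes passed in place of 16.4%. Under that block the adjusted p of Slc7a11 was 0.0706 and that of Gdf15 0.0283. The count of ATF4 response genes at the unadjusted p was 2 to 9 with each library left out, and that of synthetases, 5 with all, was 1 to 8. In these fits 13.5% (without control 1) to 16.6% (without cKO 3) of all genes passed. The count of members at the adjusted p was 0, 1 with that block of 2 sets (Ddit3), and 0 to 1 with each library left out. The cause was not tested. The replicate numbers did not pair the libraries (correlations of 0.137, 0.11, 0.116 and 0.0797 for the same number, and 1 of 4 controls correlated best with its own number). Different numbers within replicates 1 and 2 or within 3 and 4 had a mean correlation of 0.13, and numbers across these sets -0.12.

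Scaling to the same sum reversed Farsb (-0.031) and Sars (-0.014). With each library left out, fold changes ran from -0.087 to 0.066 for Iars, -0.10 to 0.057 for Lars, -0.12 to 0.016 for Mars, -0.025 to 0.15 for Vars, -0.12 to 0.0020 for Farsa, -0.044 to 0.096 for Farsb, -0.30 to 0.0047 for Atf5, -0.15 to 0.075 for Nupr1 and -0.30 to 0.0021 for Asns. Of all fits of single members, 448 kept direction and side of the unadjusted threshold, 20 changed direction, and 19 gained and 23 lost the threshold. The median of the ATF4 response genes stayed below 0 in every fit.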
